A study of Mus musculus with 33 samples.

Results

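The genes described here are the receptors and organisers of the neuromuscular junction, the synapse between a motor nerve and a muscle fibre. They were chosen by name, with earlier results of these data known, and are 10 of the 23420 genes counted: the organisers Musk, Lrp4, Agrn, Dok7 and Rapsn, and the acetylcholine receptor subunits Chrna1, Chrnb1, Chrnd, Chrne and Chrng. RNA was sequenced from quadriceps of adult male C57BL6 mice that were either Actn3 knockout (KO) or wild type (WT). Actn3 encodes alpha-actinin-3, a Z-line protein of fast muscle fibres, and the KO mice lack it in the whole animal. The 8 groups were KO and WT mice given 20 mg/kg dexamethasone, a synthetic glucocorticoid, or saline, with muscle taken at 3 h or 24 h. Each of the 4 dexamethasone groups had 5 libraries. The saline groups had 3 libraries for KO at 3 h, 3 for WT at 3 h, 3 for KO at 24 h and 4 for WT at 24 h, which makes 33 libraries in all. Whether every library came from its own mouse is not said in the labels, and p-values here measure the spread between libraries, which may be technical. Replicate numbers are names given here in deposit order and pair no libraries.

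At the junction, agrin released by the nerve binds the receptor LRP4 on the muscle surface, and LRP4 then activates the kinase MuSK. The adaptor Dok7 binds MuSK from inside the fibre and drives its activity, and rapsyn anchors acetylcholine receptors beneath the nerve ending. The adult receptor holds alpha, beta, delta and epsilon subunits, encoded by Chrna1, Chrnb1, Chrnd and Chrne. In fetal and denervated muscle the gamma subunit, encoded by Chrng, takes the place of epsilon. In innervated muscle most of these genes are transcribed mainly by the few fibre nuclei under the synapse, so in whole-muscle RNA fewer such nuclei and less RNA per nucleus cannot be told apart.

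The promoters of 5 of these genes are shown as background, and their part in the results was not tested. Musk and Dok7 each rose with dexamethasone at 3 h, Chrne and Chrng are the adult and fetal alternatives, and Chrna1 is a subunit of both receptors. The promoters come from RefSeq on GRCm38.p6, which matched 7 of the 10 genes. Chrnd, Lrp4 and Rapsn had no entry. Each runs 5′ to 3′ on the gene's strand, from 250 bases before the annotated start to 50 bases after it. Capitals mark the E-box CANNTG, the motif of muscle basic helix-loop-helix factors, and the N-box TTCCGG, written CCGGAA where it lies on the opposite strand.
Musk: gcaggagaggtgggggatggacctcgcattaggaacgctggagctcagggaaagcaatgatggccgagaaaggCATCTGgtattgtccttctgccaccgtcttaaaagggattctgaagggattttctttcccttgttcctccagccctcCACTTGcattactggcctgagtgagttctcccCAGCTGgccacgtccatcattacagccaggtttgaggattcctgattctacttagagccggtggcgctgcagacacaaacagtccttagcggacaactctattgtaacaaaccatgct
Dok7: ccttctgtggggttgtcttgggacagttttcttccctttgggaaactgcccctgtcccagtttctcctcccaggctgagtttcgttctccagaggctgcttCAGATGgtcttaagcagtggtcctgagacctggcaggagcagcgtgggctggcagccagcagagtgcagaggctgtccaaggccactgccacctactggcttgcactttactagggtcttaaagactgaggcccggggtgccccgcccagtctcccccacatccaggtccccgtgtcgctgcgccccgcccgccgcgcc
Chrne: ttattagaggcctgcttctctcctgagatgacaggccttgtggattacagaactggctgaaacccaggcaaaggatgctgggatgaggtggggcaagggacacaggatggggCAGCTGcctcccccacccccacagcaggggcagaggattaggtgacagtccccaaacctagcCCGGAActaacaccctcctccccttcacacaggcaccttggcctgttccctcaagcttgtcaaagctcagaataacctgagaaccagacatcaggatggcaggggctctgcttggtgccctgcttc
Chrng: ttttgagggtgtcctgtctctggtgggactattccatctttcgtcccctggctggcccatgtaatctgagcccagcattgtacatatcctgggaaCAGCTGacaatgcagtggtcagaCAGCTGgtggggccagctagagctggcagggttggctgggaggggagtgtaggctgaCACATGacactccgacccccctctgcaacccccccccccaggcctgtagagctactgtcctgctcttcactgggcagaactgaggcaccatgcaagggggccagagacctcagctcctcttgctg
Chrna1: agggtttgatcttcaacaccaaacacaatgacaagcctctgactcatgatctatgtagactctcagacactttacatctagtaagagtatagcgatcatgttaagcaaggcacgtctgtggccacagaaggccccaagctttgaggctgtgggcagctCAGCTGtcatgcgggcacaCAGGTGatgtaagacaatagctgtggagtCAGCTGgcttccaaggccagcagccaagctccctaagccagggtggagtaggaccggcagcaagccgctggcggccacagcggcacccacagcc
The windows lie at chr4:58285712-58286011 (+) for Musk, chr5:35056516-35056815 (+) for Dok7, chr11:70619145-70619444 (-) for Chrne, chr1:87205561-87205860 (+) for Chrng and chr2:73580289-73580588 (-) for Chrna1. An E-box match began at positions -177, -100 and -68 from the start in Musk, and at position -149 in Dok7. Chrne held 1 E-box match at position -138 and the only N-box match of these windows, at position -76. On both strands, 72.3% of the 32851 mouse promoters in the same table held an E-box match and 14.9% held an N-box match. The letters AGAACA, an arm of the glucocorticoid receptor's paired binding element, were matched in 19.0% of those promoters and in none of the 9 windows of the 7 genes. A second Dok7 window and the windows of Chrnb1 and Agrn are not printed.

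Libraries held 19.7 to 42.8 M gene counts, with a median of 29.9 M (M for mega). Actn3 itself had 31.9 to 84.1 CPM (counts per M gene counts, TMM-scaled) in KO libraries, against 6960 to 9700 CPM in WT libraries. Summed over 10 muscle fibre markers the level was 136000 to 214000 CPM. Of 9 motor neuron markers 3, Chat, Slc18a3 and Mnx1, had 0 counts in all 33 libraries. The others had up to 7 reads in a library, among them Syt2 with 0 to 7 and Nefh with 0 to 6. The 5 libraries whose names begin ML1716, a prefix the labels do not explain, are spread over 4 groups and include the highest Dok7 and Rapsn values of the KO dexamethasone 3 h and WT dexamethasone 24 h groups. Results are given without them where a call differed.

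Scaled to exon length, as CPM per kilobase of annotated exon, the beta subunit had the highest mean of the set in saline muscle. Chrnb1 averaged 15.6 ± 2.29 in KO (SD, n = 6, both times) and 10.4 ± 1.62 in WT (SD, n = 7). Chrne was next in KO at 9.53 ± 1.5, against 6.64 ± 1.3 in WT, and Rapsn had 8.07 ± 0.858 in KO and 8.84 ± 0.609 in WT. The place of Musk in this order differed between the genotypes: it averaged 3.39 ± 0.546 in KO, level with Chrna1 at 3.18 ± 0.39, and 9.34 ± 1.94 in WT, within the spread of Chrnb1 and Rapsn. Agrn (2.13 ± 0.217 in KO, 1.84 ± 0.0963 in WT), Dok7 (1.85 ± 0.333 in KO, 1.85 ± 0.35 in WT) and Lrp4 (1.59 ± 0.137 in KO, 1.44 ± 0.0824 in WT) lay close together below these. Within KO neither Agrn and Dok7 nor Dok7 and Lrp4 stood apart by more than their spread. Chrnd, at 0.97 ± 0.14 in KO and 0.929 ± 0.107 in WT, was the lowest subunit of the adult receptor, and Chrng, at 0.0167 ± 0.00978 in KO and 0.0603 ± 0.0539 in WT, was close to the limit of detection. The exon length is the union over all annotated transcripts, so a gene with long minor transcripts is placed too low in this order. No exon base of 9 of the genes overlaps another gene, and 4 bases of Rapsn (0.222% of its exons) overlap an antisense gene.

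**Figure D1:**
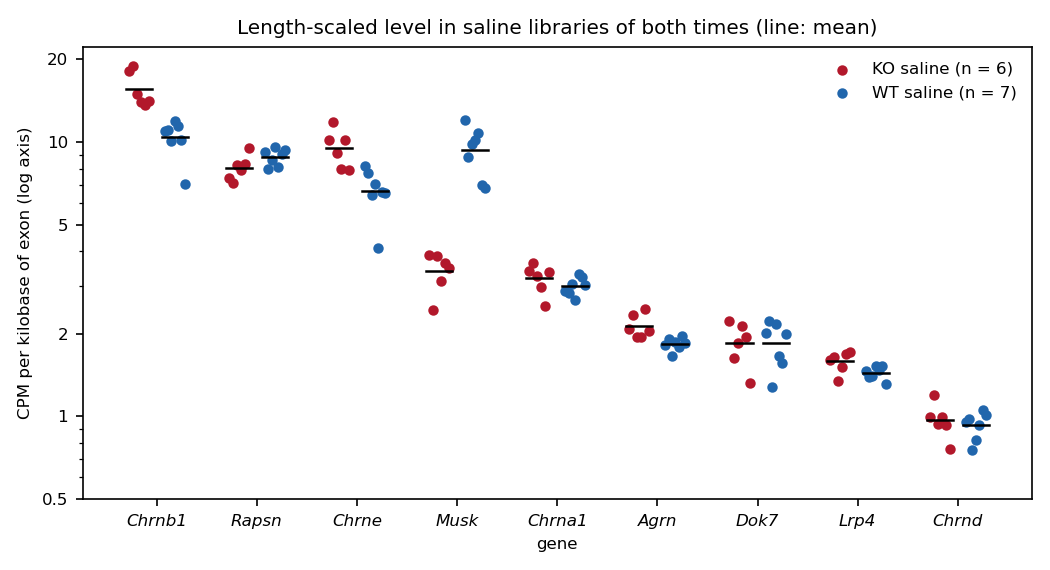
Level of each gene in saline muscle, in CPM per kilobase of exon on a log axis, with 1 point per library (KO n = 6, WT n = 7) and the group mean, Chrng left out. The Chrnb1 mean is highest in both genotypes. The Musk mean is near 3.39 in KO and near 9.34 in WT, where the Musk and Chrnb1 libraries overlap.

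Dexamethasone at 3 h raised Musk and Dok7 in both genotypes and left the other organisers and the receptor subunits without a call. Musk (chr4:58285960-58374303, + strand) was 2.82-fold higher in KO muscle and 1.92-fold higher in WT muscle, and Dok7 (chr5:35056766-35087839, + strand) was 1.83-fold and 1.75-fold higher. Of the 9 genes tested, 2 passed in KO muscle, where 17.5% of all 13955 genes tested passed, and 2 in WT muscle, where 14.9% passed. The test was edgeR's quasi-likelihood F test with Benjamini-Hochberg adjustment over all genes tested, at 0.05.

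In KO muscle at 3 h Musk had 34.1, 43.9, 38.0, 30.7 and 33.9 CPM with dexamethasone, against 14.7, 9.21 and 14.5 CPM with saline. In WT muscle it had 60.4, 77.6, 55.6, 68.2 and 109 CPM with dexamethasone, against 45.4, 33.4 and 37.1 CPM with saline. In each genotype every dexamethasone library was above every saline library, and 23.1% of all genes tested in KO and 23.9% in WT did not overlap. The log2 fold change was 1.50 ± 0.192 in KO (SE; adjusted p = 4.11e-07) and 0.94 ± 0.183 in WT (adjusted p = 0.000253). The KO effect minus the WT effect was 0.55 ± 0.255 on the log2 scale, with an unadjusted p of 0.0372 and an adjusted p of 0.999 by edgeR, so a difference between the genotypes was not shown. No gene in the table passed that test by edgeR (460 had an unadjusted p under 0.05, 2 of them among these genes), against 5 by DESeq2, 0 by limma-voom and 8 by limma-voom with sample weights, none of them among these genes.

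Dok7 had 13.2, 13.2, 12.4, 16.2 and 19.4 CPM in KO muscle with dexamethasone at 3 h, against 9.47, 6.97 and 7.97 CPM with saline. In WT muscle it had 13.9, 15.6, 14.0, 12.9 and 12.5 CPM with dexamethasone, against 8.64, 9.54 and 5.49 CPM with saline. The dexamethasone and saline libraries did not overlap in either genotype, as was true of 23.1% of all genes tested in KO and 23.9% in WT. The log2 fold change was 0.87 ± 0.203 in KO (adjusted p = 0.00209) and 0.81 ± 0.205 in WT (adjusted p = 0.00491). The WT call rested on the lowest saline library: leaving out WT saline 3 h replicate 3 gave 0.60 with an adjusted p of 0.0812. Averaged over the genotypes the Dok7 change was 0.84 ± 0.144 (adjusted p = 2.54e-05) and the Musk change 1.22 ± 0.132 (adjusted p = 6e-09), where 29.1% of all genes tested passed and again 2 of these 9 did.

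**Figure D2:**
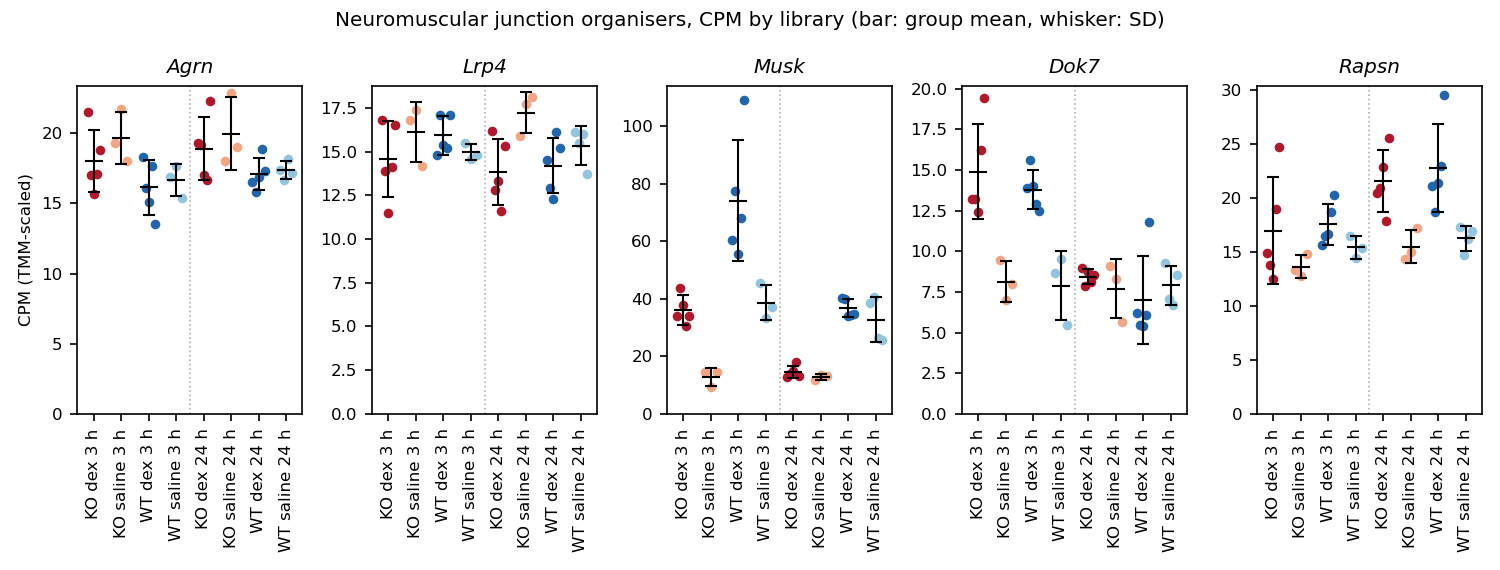
CPM of Musk, Dok7, Rapsn, Lrp4 and Agrn in each library, by group, with the group mean and SD (n = 3 to 5). Musk and Dok7 are raised in the dexamethasone 3 h groups and Rapsn in the dexamethasone 24 h groups. For Musk each KO group lies below the WT group of the same treatment and time.

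By 24 h the rise of Musk was no longer seen. Musk had 12.7, 14.0, 14.9, 17.9 and 13.1 CPM in KO muscle with dexamethasone, against 11.7, 13.6 and 13.1 CPM with saline. In WT muscle it had 40.3, 40.0, 34.0, 34.5 and 34.6 CPM with dexamethasone, against 38.5, 40.7, 26.3 and 25.6 CPM with saline. The groups overlapped in both genotypes, with log2 fold changes of 0.18 in KO and 0.16 in WT that did not pass. The effect at 24 h minus the effect at 3 h was -1.32 ± 0.263 in KO (adjusted p = 0.000651), where 1 of the 9 genes and 10.8% of all genes tested passed. In WT it was -0.78 ± 0.243 (adjusted p = 0.0232), where 2 of the 9 and 17.1% of all passed. The WT difference for Musk lost its call without any 1 of 4 libraries: -0.69 (adjusted p = 0.0886) without WT saline 3 h replicate 2, -0.75 (0.0563) without WT saline 3 h replicate 3, -0.61 (0.0527) without WT dexamethasone 3 h replicate 5 and -0.67 (0.0622) without WT saline 24 h replicate 2.

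The same comparison for Dok7 gave -0.97 ± 0.277 in WT (adjusted p = 0.0127), and -0.77 (adjusted p = 0.0658) without WT saline 3 h replicate 3. In KO it gave -0.73 ± 0.286 (adjusted p = 0.106). At 24 h Dok7 had 8.97, 7.84, 8.75, 8.09 and 8.55 CPM in KO muscle with dexamethasone, against 9.11, 8.32 and 5.64 CPM with saline. In WT muscle it had 6.17, 5.48, 5.41, 6.06 and 11.8 CPM with dexamethasone, against 9.28, 7.09, 6.69 and 8.52 CPM with saline. All but 1 of the WT dexamethasone libraries lay below every WT saline library, and replicate 5 lay above them all, and neither genotype had a call at 24 h.

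Rapsn (chr2:91035620-91045729, + strand), the receptor anchor, was the organiser called higher in each genotype at 24 h. It had 20.5, 20.9, 22.9, 17.9 and 25.6 CPM in KO muscle with dexamethasone, against 14.3, 15.0 and 17.2 CPM with saline. In WT muscle it had 21.1, 18.7, 21.4, 23.0 and 29.5 CPM with dexamethasone, against 17.3, 14.7, 16.2 and 16.9 CPM with saline. Every dexamethasone library was above every saline library in each genotype, and 15.8% of all genes tested in KO and 11.8% in WT had groups that did not overlap. The log2 fold change was 0.48 ± 0.159 in KO (adjusted p = 0.0476) and 0.49 ± 0.143 in WT (adjusted p = 0.0203), and Rapsn was the 1 gene of the 9 to pass in either, beside 10.9% of all genes tested in KO and 13.8% in WT. Averaged over the genotypes it was 0.48 ± 0.107 (adjusted p = 0.0011), with adjusted p between 0.00075 and 0.00499 whichever of the 17 libraries at 24 h was left out. Singly the calls were less firm. In KO the call held when dexamethasone 24 h replicate 4 was left out (adjusted p = 0.0342) and was lost without any other of its 8 libraries, with log2 fold changes of 0.41 to 0.56 and adjusted p up to 0.16. It was also lost with scaling by totals, with no filter, with limma-voom, with the name series as a covariate and with only the compared groups fitted, at adjusted p of 0.0531 to 0.106. In WT the adjusted p was 0.0736 when saline 24 h replicate 2 was left out, 0.0525 when saline 24 h replicate 3 was, and 0.0663, at a log2 fold change of 0.37, when dexamethasone 24 h replicate 5 was. Without the ML1716 libraries both passed, at 0.47 ± 0.122 in KO (adjusted p = 0.0138) and 0.39 ± 0.114 in WT (adjusted p = 0.0187). At 3 h the Rapsn changes were 0.32 in KO and 0.18 in WT and did not pass. Their average was 0.25 ± 0.111 (adjusted p = 0.0876), and 0.30 (0.0355) without KO dexamethasone 3 h replicate 3. The effect at 24 h minus that at 3 h was 0.16 ± 0.221 in KO (adjusted p = 0.75) and 0.30 ± 0.211 in WT (0.351). A rise particular to 24 h was thus not shown.

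Lrp4, the agrin receptor, and Agrn had no call in a single genotype at either time. Lrp4 averaged over the genotypes had a log2 change of -0.21 ± 0.0776 at 24 h (adjusted p = 0.0425), where 2 of the 9 genes and 25.5% of all genes tested passed, and this call was lost without any 1 of 10 of the 17 libraries, with log2 changes of -0.24 to -0.18 and adjusted p of 0.0244 to 0.107 over all 17. It was kept when KO saline replicate 1, KO dexamethasone replicate 1 or 5, WT saline replicate 4 or WT dexamethasone replicate 1, 4 or 5 was left out. It was also lost with no filter (0.0589), with sample weights (0.0504) and with only the compared groups fitted (0.0756). Agrn, which muscle makes along with nerve, differed between dexamethasone and saline by -0.12 to -0.02 on the log2 scale in the 4 comparisons, with 95% intervals, 1.96 SE each way, that lay within -0.34 and 0.18.

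Some markers of other cell types were called at the same times. In the change averaged over the genotypes 29.1% of all genes tested passed at 3 h and 25.5% at 24 h. At 3 h the sum of 7 satellite cell markers was 30.5 to 39.5 CPM in KO muscle with dexamethasone and 49.6 to 60.5 CPM with saline, and 30.2 to 37.2 CPM in WT muscle with dexamethasone and 48.4 to 50.3 CPM with saline. Each of these markers was detected, and in the change averaged over the genotypes 4 of the 7 fell, with Pax7 at -2.17 ± 0.197 (adjusted p = 1.4e-10) and Heyl at -1.68 ± 0.145 (4.16e-11) on the log2 scale. Of the 7 endothelial markers 5 fell and 1 rose, led by Kdr at -1.83 ± 0.0988 (5.46e-16), of 5 macrophage markers 3 rose, and of 10 Schwann cell markers 1 fell and 1 rose, Sox10 at -1.57 ± 0.171 (6.26e-09) and Egr2 at 0.59 ± 0.188 (0.0169). At 24 h the sum of 7 fibroblast markers was 985 to 1150 CPM in KO muscle with dexamethasone and 1390 to 1510 CPM with saline, and 1030 to 1200 CPM in WT muscle with dexamethasone and 1350 to 1700 CPM with saline. There 6 of 7 fibroblast, 4 of 10 Schwann cell and 3 of 5 macrophage markers fell. Of the 7 satellite cell markers 1 rose and 1 fell at 24 h. Of the 7 endothelial markers 1 fell and 1 rose, Kdr at 0.34 ± 0.0969 (0.00912). Of 4 smooth muscle markers 2 rose at 3 h and 1 at 24 h. The muscle fibre sum overlapped between dexamethasone and saline at 3 h, at 166000 to 197000 CPM with dexamethasone and 176000 to 190000 CPM with saline in KO, and 172000 to 214000 CPM with dexamethasone and 173000 to 191000 CPM with saline in WT. At 24 h it was 136000 to 163000 CPM with dexamethasone and 153000 to 179000 CPM with saline in KO, and 157000 to 186000 CPM with dexamethasone and 148000 to 191000 CPM with saline in WT. Of the 10 fibre markers 2 rose at 3 h, Mylpf (0.32 ± 0.0952, adjusted p = 0.0112) and Acta1 (0.23 ± 0.0803, 0.0285). At 24 h 1 fell, Myh2 (-0.65 ± 0.194, 0.0129). The part of these markers in the Musk, Dok7 and Rapsn results was not tested.

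**Figure D3:**
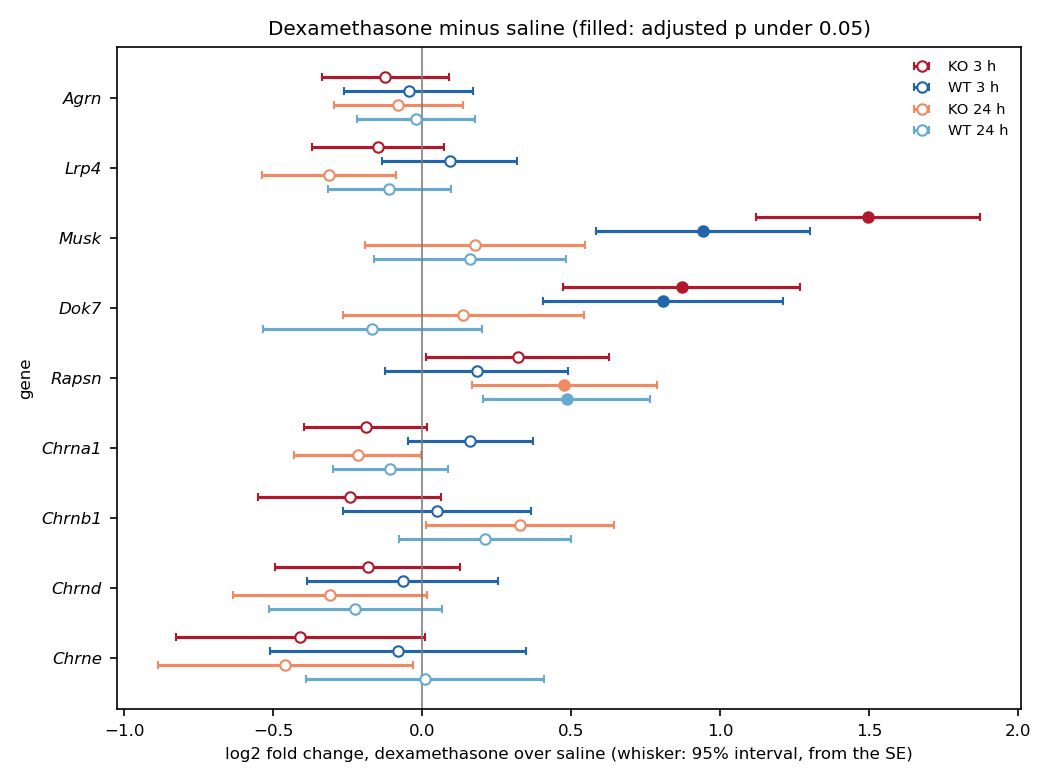
Log2 fold change, dexamethasone over saline, of the 9 tested genes in KO and WT at 3 h and 24 h, with whiskers for the 95% interval from the SE and filled points where the adjusted p was under 0.05. The filled points are Musk and Dok7 at 3 h and Rapsn at 24 h, in both genotypes.

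The subunits of the adult receptor did not pass in any of the 4 comparisons of dexamethasone with saline. By edgeR 0 of the 4 tested subunits were called in each, beside 17.5% of all genes tested in KO at 3 h, 14.9% in WT at 3 h, 10.9% in KO at 24 h and 13.8% in WT at 24 h, with an unadjusted p under 0.05 for 1, Chrne in KO at 24 h. DESeq2 and limma-voom called 0, and limma-voom with sample weights called 1, Chrne in KO at 3 h at a log2 change of -0.47 (adjusted p = 0.0479). Averaged over the genotypes at 24 h, where 25.5% of all genes tested passed, 0 of the 4 passed by edgeR and 3 had an unadjusted p under 0.05: Chrna1 at -0.16 ± 0.0728 (adjusted p = 0.101), Chrnb1 at 0.27 ± 0.109 (0.0679) and Chrnd at -0.27 ± 0.111 (0.0749). In that average DESeq2 and limma-voom called 0, Chrna1 was called with sample weights (-0.21, 0.0207) and Chrnb1 with the name series as a covariate (0.32, 0.0244). Chrne (chr11:70614883-70619216, - strand) had 10.6, 10.5, 9.17, 10.7 and 12.3 CPM in KO muscle with dexamethasone at 24 h, against 13.5, 17.2 and 13.4 CPM with saline. These groups did not overlap, which made Chrne and Rapsn the 2 such genes of the 9 in KO at 24 h, beside 15.8% of all genes tested, and the log2 change was -0.46 ± 0.218 with an adjusted p of 0.174 by edgeR. In WT muscle at 24 h Chrne had 10.5, 10.9, 10.8, 12.0 and 7.29 CPM with dexamethasone, against 11.9, 6.96, 11.1 and 11.0 CPM with saline, and the change was 0.01 ± 0.203. The KO minus WT difference of the 2 effects at 24 h was not called for any of the 9 genes by edgeR, with 0 at an unadjusted p under 0.05, and 0 of the 9 passed by DESeq2 or either form of limma-voom.

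The alpha and delta subunits had values on the same side in KO at 24 h without a call. Chrna1 (chr2:73563215-73580338, - strand) had a log2 change of -0.22 ± 0.108 (adjusted p = 0.195) and Chrnd (chr1:87190607-87200070, + strand) one of -0.31 ± 0.166 (adjusted p = 0.231). Chrnb1 had a value of the opposite sign, 0.33 ± 0.161 (adjusted p = 0.191), which was called without the ML1716 libraries, at 0.51 ± 0.136 (0.0165). Without KO dexamethasone 24 h replicate 3 it was 0.15 (adjusted p = 0.517). The authors' deposited table for KO at 24 h, made with limma, lists as lower with an adjusted p under 0.05 Chrna1 at -0.33 (0.00778), Chrnd at -0.43 (0.0295), Chrne at -0.61 (0.0207) and Lrp4 at -0.28 (0.0313). It also lists Rapsn as higher, at 0.55 (0.00268). The share of all genes that pass in the authors' table was not worked out. For Musk at 3 h the authors' deposited tables give log2 changes of 1.50 in KO (3.66e-09) and 1.04 in WT (4.89e-07).

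Chrng, the fetal subunit, was too low to pass the filter on counts and was not among the genes tested. At 3 h it had 5, 5, 2, 4 and 3 reads in KO libraries with dexamethasone, against 0, 2 and 2 with saline, and 4, 7, 5, 1 and 7 reads in WT libraries with dexamethasone, against 1, 3 and 2 with saline. At 24 h it had 2, 4, 2, 0 and 3 reads in KO libraries with dexamethasone, against 3, 2 and 2 with saline, and 5, 3, 1, 1 and 6 reads in WT libraries with dexamethasone, against 4, 20, 10 and 10 with saline. The WT saline 24 h group thus held the 3 highest values, while every other library had 7 reads or fewer. A count of 0 allows up to 0.141 CPM in KO dexamethasone 24 h replicate 4 and 0.0899 CPM in KO saline 3 h replicate 1. As a share of Chrng and Chrne reads together, Chrng made up 1.19%, 8.47%, 2.42% and 3.98% in the 4 WT saline 24 h libraries and 0 to 2.92% elsewhere. The 8.47% has an exact 95% binomial interval of 5.25 to 12.8%, which covers counting error only, since sequenced PCR copies are not independent molecules. With no filter on low counts, the edgeR log2 change of Chrng in WT at 24 h was -1.83 ± 0.497 (adjusted p = 0.0141), while the changes in the other 3 comparisons of dexamethasone with saline were not called. The same WT saline 24 h libraries had a macrophage marker sum of 169 to 284 CPM, against 124 to 134 CPM in WT dexamethasone 24 h libraries. In KO at 24 h this sum was also higher with saline, at 153 to 189 CPM, than with dexamethasone, at 131 to 142 CPM. The part of the macrophage markers in the Chrng values was not tested.

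**Figure D4:**
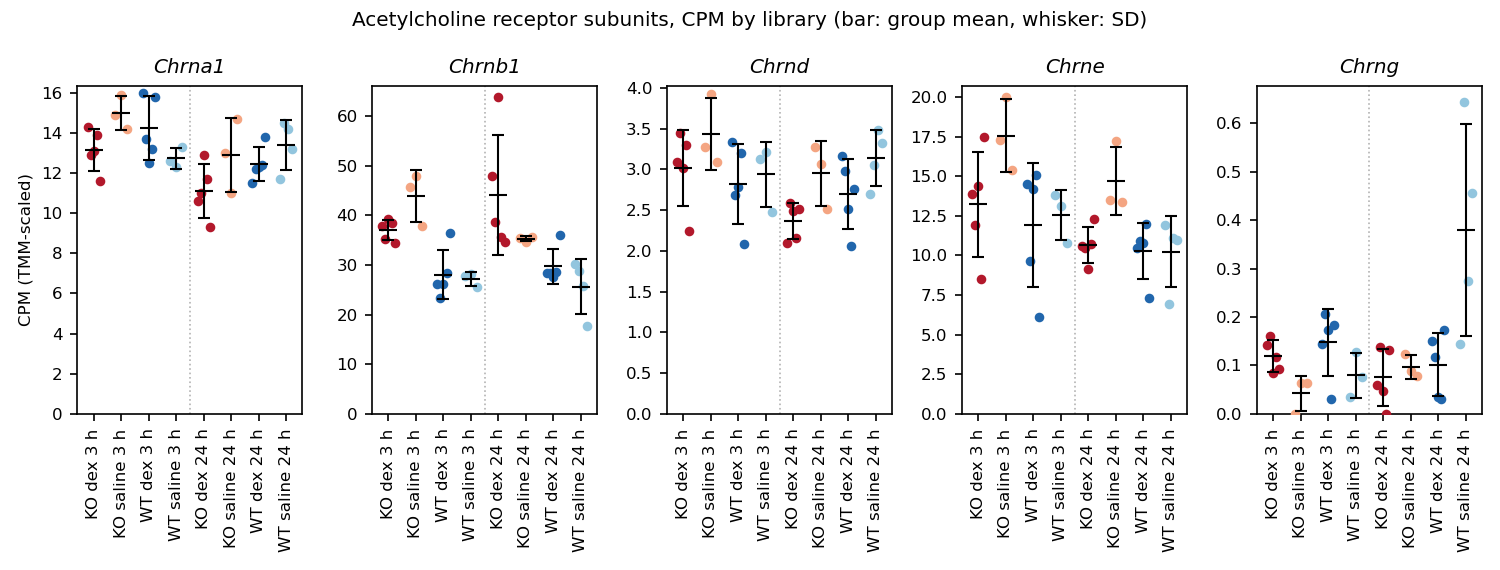
CPM of the 5 acetylcholine receptor subunits in each library, by group, with the group mean and SD (n = 3 to 5). Chrnb1 lies higher in KO than in WT groups, and Chrng is highest in 3 of the 4 WT saline 24 h libraries.

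Loss of Actn3 went with a lower Musk level at both times and under both treatments. With dexamethasone at 3 h the mean was 36.1 ± 5.04 CPM in KO and 74.2 ± 21.2 CPM in WT (SD, n = 5 each). With saline at 3 h it was 12.8 ± 3.11 CPM in KO and 38.6 ± 6.15 CPM in WT (SD, n = 3 each). At 24 h it was 14.5 ± 2.05 CPM in KO and 36.7 ± 3.17 CPM in WT with dexamethasone (SD, n = 5 each), and 12.8 ± 0.985 CPM in KO (n = 3) and 32.8 ± 7.96 CPM in WT (n = 4) with saline. Every KO library was below every WT library in all 4 comparisons. Of all genes tested, 26.8% did not overlap with saline at 3 h and 14.1% with saline at 24 h. With dexamethasone 5.1% did not overlap at 3 h and 3.99% at 24 h. The log2 fold change of KO over WT was -1.04 ± 0.154 with dexamethasone at 3 h (adjusted p = 5.06e-05), -1.59 ± 0.207 with saline at 3 h (1.22e-05), -1.34 ± 0.159 with dexamethasone at 24 h (1.13e-06) and -1.36 ± 0.199 with saline at 24 h (9.19e-05), all by edgeR. Musk was the 1 gene of the 9 called with dexamethasone at 3 h, where 3% of all genes tested passed, and the 1 called with saline at 24 h, where 3.17% passed. In the other 2 comparisons 2 of the 9 passed, beside 1.5% of all genes tested with saline at 3 h and 5.19% with dexamethasone at 24 h. The KO level with dexamethasone at 3 h, 30.7 to 43.9 CPM, lay within the range of WT saline libraries over both times, 25.6 to 45.4 CPM.

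Chrnb1 (chr11:69784036-69795943, - strand), the beta subunit, was the other gene called between genotypes, and it was higher in KO. With saline at 3 h it had 45.8, 47.9 and 37.9 CPM in KO, against 27.8, 28.1 and 25.6 CPM in WT. These did not overlap, as was true of 26.8% of all genes tested. The log2 fold change was 0.69 ± 0.179 (adjusted p = 0.0405), and the call was kept without KO replicate 3 (adjusted p = 0.0457) and lost without any other of the 6 libraries, at 0.62 to 0.72 and adjusted p of 0.0779 to 0.209. With scaling by totals it was 0.65 (0.057). With dexamethasone at 24 h it had 47.9, 38.7, 63.8, 35.6 and 34.6 CPM in KO, against 28.3, 28.3, 27.6, 28.5 and 36.0 CPM in WT, which overlapped through WT replicate 5. The log2 fold change was 0.57 ± 0.138 (adjusted p = 0.0102), 0.40 (0.0503) without KO replicate 3, 0.58 (0.0722) with only these groups fitted, and 0.84 ± 0.126 (0.000115) without the ML1716 libraries, which hold WT replicate 5 and the 2 lowest KO libraries. With dexamethasone at 3 h it was 0.40 ± 0.138 (adjusted p = 0.123) and with saline at 24 h 0.46 ± 0.167 (0.127), which did not pass. The authors' deposited table of the genotype effect over all conditions lists Musk at -1.32 (adjusted p = 1.64e-12) and Chrnb1 at 0.53 (6.68e-06), and also Chrne at 0.32 (0.0399) and Agrn at 0.18 (0.0148). The share of all genes that pass there was not worked out.

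Chrne had higher values in KO saline libraries without a call. It had 17.3, 20.0 and 15.4 CPM in KO at 3 h, against 13.8, 13.1 and 10.8 CPM in WT, and 13.5, 17.2 and 13.4 CPM in KO at 24 h, against 11.9, 6.96, 11.1 and 11.0 CPM in WT. The groups did not overlap at either time, and the log2 fold change was 0.48 ± 0.242 at 3 h (adjusted p = 0.416) and 0.52 ± 0.229 at 24 h (adjusted p = 0.216). With only the compared groups fitted, the 3 h difference was called, at 0.49 (adjusted p = 0.0356). With saline at 3 h 5 of the 9 genes did not overlap between KO and WT, and with saline at 24 h 3 did not, where 26.8% and 14.1% of all genes tested did not overlap. With dexamethasone 1 gene, Musk, did not overlap at either time, beside 5.1% of all genes at 3 h and 3.99% at 24 h. Muscle fibre marker sums in saline muscle at 3 h were 176000 to 190000 CPM in KO and 173000 to 191000 CPM in WT. With dexamethasone at 24 h they were 136000 to 163000 CPM in KO and 157000 to 186000 CPM in WT, with 0 of the 10 markers called. There 1 of 10 Schwann cell and 1 of 4 smooth muscle markers were called lower in KO, beside 5.19% of all genes tested. The part of these markers in the genotype results was not tested.

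**Figure D5:**
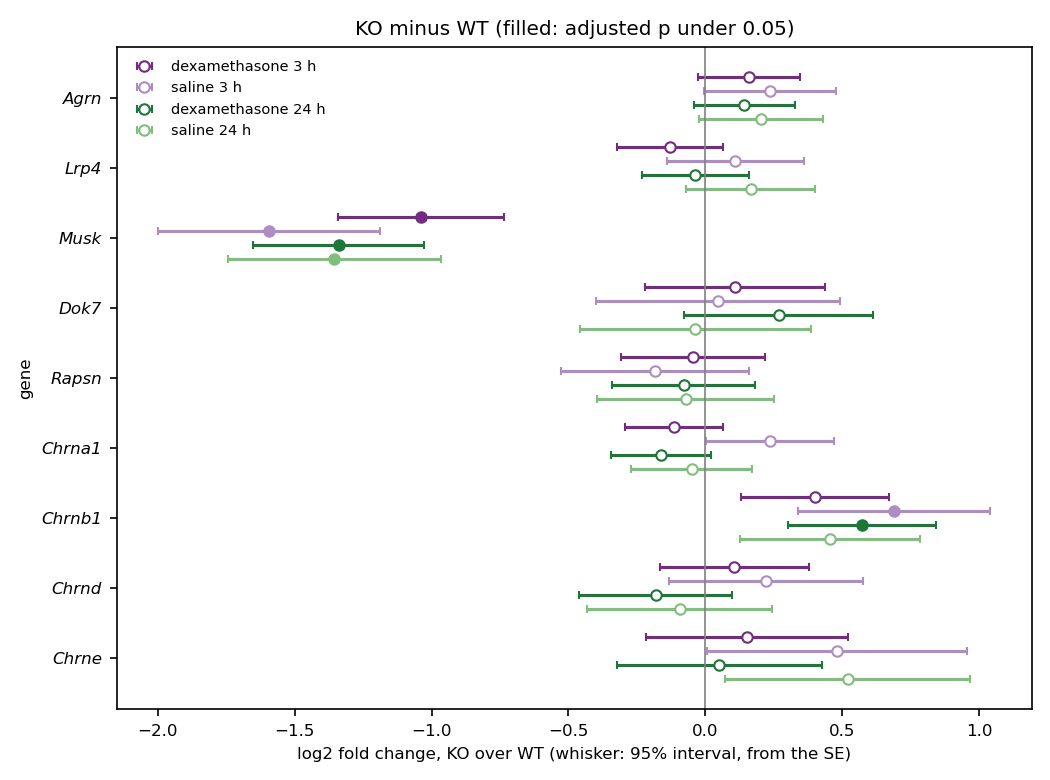
Log2 fold change, KO over WT, of the 9 tested genes in the 4 combinations of treatment and time, with whiskers for the 95% interval from the SE and filled points where the adjusted p was under 0.05. All 4 Musk values lie between -1.59 and -1.04, and the Chrnb1 values between 0.40 and 0.69.

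Among saline muscles none of these genes passed between the times. In the comparison of saline at 24 h with saline at 3 h averaged over the genotypes, 0 of the 9 genes were called by edgeR, with 0 at an unadjusted p under 0.05 and 0 by DESeq2, limma-voom or limma-voom with sample weights, beside 2.47% of all genes tested.

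Other genes of the junction are given here as the change averaged over the genotypes. In that average 29.1% of all genes tested passed at 3 h and 25.5% at 24 h. A call at 1 time without a call at the other does not show a difference between the times. Of 15 partners of the MuSK pathway 2 rose at 3 h, Dvl1 (0.19 ± 0.0743, adjusted p = 0.0485) and Fnta (0.21 ± 0.0791, 0.0489), with a list median of 0.05 beside 0.003 over all genes. At 24 h 2 rose and 3 fell, with a median of 0.003 beside -0.003. Pak1, a kinase downstream of MuSK signalling, fell by 0.72 ± 0.12 on the log2 scale (adjusted p = 3.43e-05), and Cacnb1, the calcium channel beta subunit of skeletal muscle, fell by 0.31 ± 0.0695 (0.00105), while the farnesyltransferase subunit Fntb (0.27 ± 0.082, 0.0156) and the adaptor Crk (0.26 ± 0.0786, 0.016) rose.

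Of 13 scaffold and enzyme genes of the synapse 1 rose and 1, Sntb2, fell at 3 h (median -0.09), where 29.1% of all genes tested passed. At 24 h 4 rose and 1 fell (median 0.04), where 25.5% of all genes tested passed. Dtna, encoding alpha-dystrobrevin, had a change of 0.08 ± 0.0733 at 3 h (adjusted p = 0.457) and rose by 0.80 ± 0.0718 at 24 h (1.17e-09). Syne1, whose product nesprin-1 anchors nuclei, rose by 0.66 ± 0.0891 at 24 h (1.44e-06). Ache, acetylcholinesterase, which breaks down the transmitter, fell by 0.56 ± 0.0979 at 24 h (6.25e-05). Ache was also called higher in KO than WT in all 4 genotype comparisons, by 0.46 to 0.73 on the log2 scale, and was picked out here after its values were seen. With saline at 24 h and with dexamethasone at each time, 1 gene of this list was called lower in KO. The shares of all genes tested that passed were 1.5% with saline at 3 h and 3.17% at 24 h. With dexamethasone they were 3% at 3 h and 5.19% at 24 h.

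Of 8 tested genes of the neuregulin receptors and ETS factors, the pathway that acts on N-boxes, 2 fell at 3 h (median -0.19), beside 29.1% of all genes tested that passed. They were Erbb3 (-0.66 ± 0.121, adjusted p = 6.9e-05), a neuregulin receptor also used by Schwann cells, and Gabpb2 (-0.34 ± 0.0691, 0.000227). At 24 h 1 fell, Etv5 (-0.27 ± 0.0724, 0.0053), with a median of -0.08, beside 25.5% of all genes tested that passed. The ligand gene Nrg1 had 0 reads in 31 of the 33 libraries. Of 11 genes of the synaptic basal lamina 2 rose and 3 fell at 3 h (median 0.09), among them the laminin chains Lama4 (-0.54 ± 0.0669, 9.12e-08) and Lama5 (-0.41 ± 0.0797, 0.000126), and 2 rose and 2 fell at 24 h (median -0.06). These counts also stand beside 29.1% of all genes tested at 3 h and 25.5% at 24 h. The basement membrane linkers Nid2 (-0.64 ± 0.0996, 1.39e-05) and Nid1 (-0.36 ± 0.0712, 0.00032) fell at 24 h, where Dag1, the dystroglycan gene, rose by 0.52 ± 0.104 (0.00036) and Col4a1, a collagen chain, by 0.39 ± 0.107 (0.00771).

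Of 14 genes that respond to activity or denervation 2 rose and 4 fell at 3 h (median -0.14), where 29.1% of all genes tested passed. At 24 h 1 rose and 4 fell (median -0.06), where 25.5% of all genes tested passed. Myod1, a basic helix-loop-helix factor that binds E-boxes, fell by 2.21 ± 0.175 on the log2 scale at 3 h (adjusted p = 5.5e-12) and by 0.56 ± 0.158 at 24 h (0.00898). Myog, the related factor that rises after denervation, fell by 0.71 ± 0.202 at 3 h (0.00768) and had a value of -0.14 ± 0.182 at 24 h (0.628). Cdkn1a, the cell-cycle inhibitor p21, rose at both times, by 2.75 ± 0.303 (8.5e-09) and 3.00 ± 0.293 (5.66e-09), and the kinase gene Sik1 rose by 1.81 ± 0.159 at 3 h (6.26e-11). The 5 glycosylation enzymes mutated in congenital myasthenia did not pass, with values between -0.15 (Dpagt1) and 0.12 (Alg2) at 3 h and the lowest adjusted p at 24 h for Gfpt1 (-0.13 ± 0.0508, 0.0546). Of 3 tested nicotinic subunits of neurons 1 rose at 24 h, Chrna2 (1.06 ± 0.302, adjusted p = 0.00937).

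Across the 8 group means of log2 CPM, the genes with the pattern most like Musk were Pofut2 (Pearson r = 0.97) and Fam65b (r = 0.969). Those most like Dok7 were Ercc1 (0.987) and Rgs2 (0.983), and those most like Rapsn were Ankrd10 (0.988) and Ring1 (0.985). These are descriptions over 8 points that share libraries, given without a p.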

How the data were processed

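RNA from mouse quadriceps was sequenced on the Illumina platform after unstranded TruSeq preparation, per the labels' protocols. The authors deposited whole-number read counts per gene for each of the 33 libraries. STAR, HTSeq, limma 3.40.6 and the mm10 build are named in the submitters' processing notes. The authors also deposited tables of their own comparisons with log2 fold changes and adjusted p-values, which are quoted only by name. HTSeq leaves reads that fit several genes uncounted: reads outside genes were 24.6 to 33.2% of each library and ambiguous reads 0.188 to 0.3%, and these rows were left out of library sizes.

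Counts were scaled by TMM (edgeR 4.0.16, R 4.3.3), filtered with filterByExpr over the 8 groups, which kept 13955 of 23420 genes and 9 of the 10 members, and fitted with 1 mean per group. The 15 contrasts were tested by the quasi-likelihood F test with Benjamini-Hochberg adjustment at 0.05, and adjusted p-values without a named tool are from this fit. CPM are TMM-scaled, and the SE is the log2 fold change divided by the root of F. Counting error allows up to 0.0704 to 0.141 CPM where a library has 0 reads. Alternatives were scaling by totals, no filter, DESeq2 1.42.0, limma 3.58.1 voom with and without sample weights, leaving out or adjusting for the ML1716 libraries, fitting only the groups compared, and leaving out each library. The scripts were tested on simulated data. No 2 libraries of a group agreed within sampling noise: over 55 pairs the chi-square per degree of freedom was at least 11.5. Coordinates and exon lengths are from GENCODE vM21 on GRCm38. The members and lists were chosen with earlier results of these data known. Genes named from the other lists are among the called ones with the smallest p, at most 4 a list and time; Myog, Ache between genotypes, Dtna at 3 h and the uncalled glycosylation genes were named after their values were seen.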

Additional observations from a re-analysis of the deposited data

Results flagged for a closer look

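In the WT dexamethasone 24 h group replicate 5 stood far from the other 4 libraries for 2 genes. It had 36.0 CPM of Chrnb1, where the nearest library had 28.5 CPM and the lowest 27.6 CPM. It had 11.8 CPM of Dok7, where the nearest had 6.17 CPM and the lowest 5.41 CPM. This library is 1 of the 5 named ML1716. Of 50 groups of values examined, 2 were picked out in this way, and chance alone picks out about 1 in 20.

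The dexamethasone effect differed between the times for 2 genes by edgeR's test of the difference. For Musk the effect at 24 h minus that at 3 h was -0.78 in WT and -1.32 in KO on the log2 scale, and for Dok7 it was -0.97 in WT.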

How the results depend on the processing

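The 135 member values (9 genes in 15 comparisons) were recomputed 2682 times. Of these, 2618 stayed on the same side of the threshold, 42 lost the call and 22 gained one. Values called in either fit reversed in 0 cases, while some small values without a call changed sign. The number of members called changed by over 1.5 times as follows. For dexamethasone in KO at 24 h, where 1 was called, it was 0 with scaling by totals, 0 with no filter, 0 with limma-voom, 0 with the ML1716 libraries as a covariate, 0 with only the groups compared and 2 without the ML1716 libraries. For dexamethasone in WT at 24 h it was 2 with no filter, against 1, and for the mean over genotypes at 24 h it was 1 with no filter and 1 with only the groups compared, against 2. For KO over WT it was 1 with totals in saline at 3 h, against 2, 2 with sample weights and 2 without ML1716 with dexamethasone at 3 h, against 1, and 1 with only the groups compared with dexamethasone at 24 h, against 2. For the change of the effect with time in KO it was 2 with sample weights, 2 without ML1716 and 2 with the covariate, against 1. Counts of 2 became 3 for dexamethasone in KO at 3 h with sample weights, for the mean at 24 h with the covariate, for KO over WT in saline at 3 h with only the groups compared, for KO over WT with dexamethasone at 24 h with sample weights and without ML1716, and for the change of the effect with time in WT with no filter.

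When each library was left out in turn, the number called was 2 to 2 for dexamethasone in KO at 3 h, 1 to 2 in WT at 3 h, 0 to 1 in KO at 24 h and 0 to 1 in WT at 24 h. It was 2 to 3 for the mean at 3 h, 1 to 3 for the mean at 24 h, and 1 to 2 for the change with time in each genotype. For KO over WT it was 1 to 2 with saline at 3 h, 1 to 1 with saline at 24 h, 1 to 2 with dexamethasone at 3 h and 1 to 3 with dexamethasone at 24 h. It was 0 to 0 for the differences between genotypes in the effect and for saline at 24 h against 3 h.

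Without the ML1716 libraries the Musk calls of dexamethasone at 3 h and of all 4 genotype comparisons were kept, and Dok7 in KO at 3 h was 0.76 ± 0.159 (adjusted p = 0.000976). Also without them Chrnb1 was called for dexamethasone in KO at 24 h (0.51 ± 0.136, adjusted p = 0.0165), for KO over WT with dexamethasone at 3 h (0.42, 0.0246) and for the change of the effect with time in KO (0.73, 0.00847), and Dok7 for KO over WT with dexamethasone at 24 h (0.57 ± 0.162, 0.0303). The cause was not tested. Among all called genes, scaling by totals moved the higher share from 50.9 to 36.9% for the mean at 3 h, 45.3 to 33.2% in WT at 3 h, 49.2 to 38.6% in WT at 24 h, 43.3 to 32.7% for KO over WT with saline at 3 h and 44.2 to 62% for saline over time. No paired analysis was possible because no label carries a replicate number, and the numbers used here only name libraries in accession order. Groups of 3 limit the saline comparisons, and at this depth Chrng could not be followed below about 3 reads.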
